A study of Mus musculus with 6 samples.

Results

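Promoter regions were the part of the open chromatin of mouse nephron progenitor cells that the deposited table assigned to the promoter of a gene. Nephron progenitors are the mesenchymal cells at the rim of the developing kidney that renew themselves and form the nephrons. They were taken from CD1 mice at embryonic day E14.5 and at birth (P0). Each of the 6 libraries, 3 for either age, came from a fixed number of cells of the pooled kidneys of 1 litter, collected by a short digestion and by magnetic beads against Itga8, an integrin on the surface of these cells. The mice carried no named allele and received no named treatment, so the groups differed by age alone as far as the labels say. ATAC-seq was used, in which the transposase Tn5 cuts and tags accessible DNA, and the count of a region measures its accessibility in the pooled cells. Of 43523 distinct regions, 14097 carried a promoter entry, and the 13555 of these on autosomes were kept. The other 28473 autosomal regions served as comparison.

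A promoter is the stretch of DNA around the start of a gene at which RNA polymerase assembles. Most promoters of genes used in many cell types are rich in CpG, the base pair step at which mammalian DNA can be methylated, and are open in nearly every tissue. Promoters poor in CpG belong more often to genes used in few tissues, and their opening varies more with cell type and age. In the kidney, progenitors are used up around birth, and the RNA-binding proteins Lin28b and Igf2bp3 belong to a set of genes known from other tissues to be active in the fetus and silenced later.

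The 250 bases before the start site are printed here for 6 genes, 3 whose promoter region fell, 2 whose promoter region rose and Six2, the defining transcription factor of these progenitors, whose promoter region did not pass the test. They are RefSeq sequence of assembly GRCm38.p6, the assembly also named mm10, read 5′ to 3′ on the strand of the gene, with each CpG in capitals. They show the spread of CpG content described further on: 26 CpG in the stretch of Six2 and 21 in that of Igf2bp3, against 7, 6, 3 and 2 in those of Kcne4, Lin28b, Tmem144 and Tas2r126.
Igf2bp3 (chr6:49214955-49215204, minus strand, fell): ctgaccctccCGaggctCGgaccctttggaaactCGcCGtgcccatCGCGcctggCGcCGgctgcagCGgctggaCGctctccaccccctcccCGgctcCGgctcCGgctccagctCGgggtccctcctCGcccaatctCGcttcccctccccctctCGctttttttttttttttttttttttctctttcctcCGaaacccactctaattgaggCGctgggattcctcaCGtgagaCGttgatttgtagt
Lin28b (chr10:45470202-45470451, minus strand, fell): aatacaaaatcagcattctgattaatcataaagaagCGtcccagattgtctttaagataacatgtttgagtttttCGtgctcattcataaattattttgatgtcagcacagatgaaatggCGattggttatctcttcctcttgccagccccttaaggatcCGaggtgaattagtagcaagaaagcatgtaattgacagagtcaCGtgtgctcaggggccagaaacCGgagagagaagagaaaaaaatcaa
Kcne4 (chr1:78816661-78816910, plus strand, fell): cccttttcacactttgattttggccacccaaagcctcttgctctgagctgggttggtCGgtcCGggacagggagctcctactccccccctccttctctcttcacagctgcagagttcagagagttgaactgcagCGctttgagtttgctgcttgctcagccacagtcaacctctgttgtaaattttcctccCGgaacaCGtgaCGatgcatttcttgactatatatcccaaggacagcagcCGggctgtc
Tmem144 (chr3:79852769-79853018, minus strand, rose): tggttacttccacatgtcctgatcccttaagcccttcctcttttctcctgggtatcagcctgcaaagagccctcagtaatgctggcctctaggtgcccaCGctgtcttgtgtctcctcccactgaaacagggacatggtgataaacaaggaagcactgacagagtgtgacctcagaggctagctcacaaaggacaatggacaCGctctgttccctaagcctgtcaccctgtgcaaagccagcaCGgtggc
Tas2r126 (chr6:42434285-42434534, plus strand, rose): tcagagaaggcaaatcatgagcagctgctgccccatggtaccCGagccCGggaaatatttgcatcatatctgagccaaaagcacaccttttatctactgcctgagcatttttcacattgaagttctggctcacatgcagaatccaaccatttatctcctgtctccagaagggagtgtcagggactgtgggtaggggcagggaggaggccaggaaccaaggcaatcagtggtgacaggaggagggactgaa
Six2 (chr17:85688255-85688504, minus strand, not called): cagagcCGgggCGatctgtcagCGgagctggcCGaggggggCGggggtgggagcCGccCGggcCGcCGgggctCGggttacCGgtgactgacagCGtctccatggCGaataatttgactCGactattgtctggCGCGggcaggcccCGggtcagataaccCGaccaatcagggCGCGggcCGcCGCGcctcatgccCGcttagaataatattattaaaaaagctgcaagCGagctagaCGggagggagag

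The libraries held 6492996 to 12292629 counts in regions, of which 3369922 to 7042683 lay in the autosomal promoter regions. The median count per promoter region ran from 145 to 342 over the libraries, and no more than 1 promoter region per library had under 10 counts. E14.5 replicates 1, 2 and 3 and P0 replicates 1, 2 and 3 are named by their stage and number. P0 replicate 2 was the shallowest library and had the lowest median promoter level. Nothing in the labels ties a library to a batch.

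Promoter regions were wider and more accessible than the other regions. Their median width was 1820 bp against 1480 bp, and their median level was 25.5 CPM (counts scaled to a common library size with TMM factors) against 11.7 CPM. Per kb of region the medians were 12.8 and 8.04 CPM. Among promoter regions, 5% lay below 8.54 CPM and 5% above 79.7 CPM. The highest per kb was a region at chr1:24611594-24616129 with 98358 CPM at E14.5 and 78668 CPM at P0. It overlaps the predicted genes Gm10222 and Gm10925 and alone held 1054171 of the 8914777 counts of E14.5 replicate 1. Next came the regions of the predicted genes Gm10800 (chr2:98666250-98667325) and Gm13341 (chr2:22587406-22588288). Whether reads from similar copies elsewhere add to these levels was not tested. None of these 3 regions passed the test between stages (adjusted p = 0.713, 0.890 and 0.573). The promoter regions took 62.3%, 56.0% and 60.6% of the autosomal counts in the E14.5 libraries and 56.2%, 53.4% and 58.9% in the P0 libraries, in the order of replicates 1, 2 and 3 used throughout. The stages overlapped in this share, with means of 59.6% ± 3.27 and 56.2% ± 2.75 (SD, n = 3 each; two-sided exact permutation p = 0.3, where 3 against 3 allow no p below 0.1). Without the 10 regions with the most counts the shares were 53.3% ± 1.82 and 50.1% ± 4.92 (exact permutation p = 0.4).

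Of the 13555 promoter regions, 118 (0.871%) differed between P0 and E14.5 in edgeR's quasi-likelihood test at a Benjamini-Hochberg adjusted p under 0.05, adjusted over all 43523 regions. More accessible at P0 were 53 (0.391%), against 1.79% of all regions, and 65 (0.48%) were less accessible, against 2.94%. Of the other autosomal regions 6.66% passed in either direction, and of all regions 4.73%. Among the promoter regions, 1202 (8.87%) had an unadjusted p under 0.05, against 18.7% of all regions. The stages did not overlap in 2287 promoter regions (16.9%), against 24.2% of all regions, and in 118 of the 118 that passed. The calls had median log2 fold changes of 0.99 and -0.99, and 55 of them changed at least 2-fold. With total-count scaling, 59 promoter regions were higher and 39 lower at P0, so the side with more calls depended on the scaling. The number of calls rested on single libraries: leaving out each E14.5 library in turn gave 44, 191 and 12, and leaving out each P0 library gave 16, 100 and 193. In each of these 6 fits the promoter regions passed less often than the other regions, with 0.0885% against 1.11% without E14.5 replicate 3 and 1.42% against 7.02% without P0 replicate 3. Fewer cells with an open promoter and less opening per cell cannot be told apart in pooled cells.

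Promoter levels changed little around a small common shift. The median log2 fold change was -0.11 over promoter regions and 0.09 over the other autosomal regions, with standard deviations over regions of 0.28 and 0.51. Of the promoter regions, 66.9% lay below 0, against 41.2% of the others. The shift was not shared by all P0 libraries, as the median level was 26.9, 25.2 and 27.1 CPM in the E14.5 libraries and 23.9, 21.9 and 27.0 CPM in the P0 libraries. Without P0 replicate 2 the medians were -0.04 and 0.01, and without P0 replicate 3 they were -0.22 and 0.14. With TMM scaling computed over promoter regions alone, the promoter median was -0.00, and that of the other regions rose to 0.22. Across regions, which are not independent, log2 CPM of promoter regions had a mean Pearson correlation of 0.937 (0.893 to 0.954) over the 6 pairs of libraries within a stage and 0.920 (0.878 to 0.949) over the 9 pairs between stages. For the other regions these means were 0.845 and 0.734.

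Calls were concentrated among weakly accessible promoters. Promoter regions were divided by level into 5 classes of 2711. In the lowest class, up to 14.8 CPM, 63 of 2711 regions (2.32%) passed, 33 higher and 30 lower. The share was 1.14%, 0.480% and 0.295% in the next classes and 0.111% in the highest, above 45.2 CPM, where the 3 calls were all lower at P0. Other regions within the same bounds of CPM passed in 6.16%, 8.04%, 8.25%, 6.61% and 1.75%. With P0 replicate 2 or P0 replicate 3 left out, the highest class held 14 and 21 calls, and the lowest 41 and 64.

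**Figure D1:**
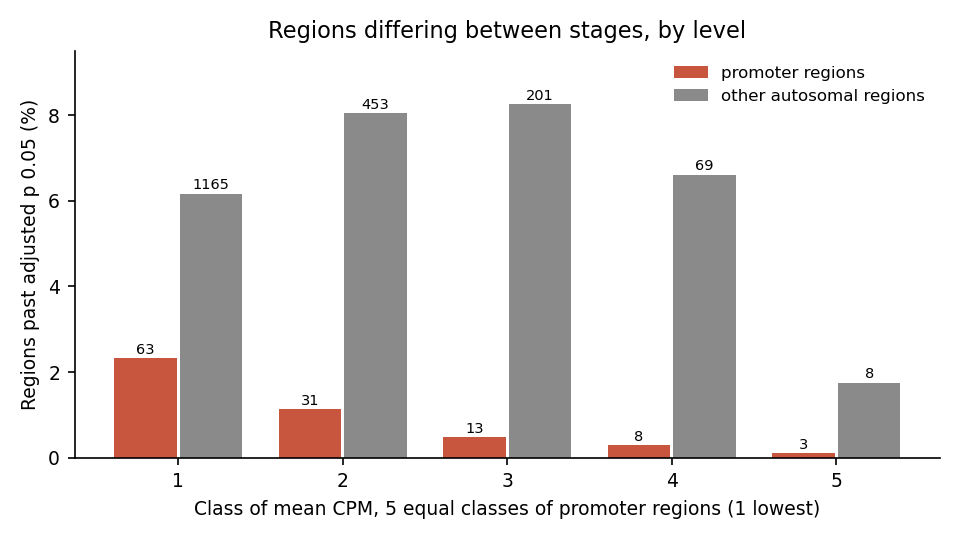
Percent of regions past an adjusted p of 0.05 (vertical axis) in 5 classes of mean CPM that hold equal numbers of promoter regions (horizontal axis), for promoter regions and other autosomal regions, with the number called above each bar. Promoter regions fall from 2.32% to 0.111% and lie below the other regions in every class.

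Most promoter regions with a known start of their gene held it, and calls were more frequent among those that did not. RefSeq gave a start for the gene of 9149 promoter regions, and 7931 of these (86.7%) held it. The other 4406 regions, with 60 of the 118 calls (1.36% called), had no start to compare. Of regions with the start inside, 25 of 7931 (0.315%) passed, 7 higher and 18 lower at P0. Of regions 1 to 10 kb from the start, 12 of 466 (2.58%) passed, and of those more than 10 kb away, 17 of 596 (2.85%), 13 higher and 4 lower. Regions with the start inside were also stronger, with a median of 27.9 CPM against 16.1 CPM for those more than 10 kb away. By kind of gene, 70 of 10978 regions of protein-coding genes (0.638%) passed, and 45 of 1973 regions (2.28%) whose gene name or identifier was not found in RefSeq. Called regions were narrower, with a median width of 1395.5 bp, and 71.2% overlapped an exon, against 93.9% of the promoter regions that did not pass. Among all promoter regions 1647 (12.2%) held starts on both strands, although the table lists 1 gene for each, and 4 of these passed.

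Promoters that changed were poorer in CpG around the start than the rest. For the 7931 regions with the start inside, the ratio of observed to expected CpG was computed in the RefSeq window of 250 bases before and 50 after the start. Over these windows the median ratio was 0.78. In the 7 regions that rose the median was 0.12 and the highest 0.24, and in the 18 that fell it was 0.42, with a range from 0 to 1.06. The share called was 5.75% (10 of 174) at ratios under 0.2 and 1.07% (6 of 559) from 0.2 to 0.4. It was 0.270%, 0.125% and 0.0813% in the classes from 0.4, 0.6 and 0.8 upwards. At ratios of at least 0.6, 6 of 6087 passed and all were lower at P0, against 19 of 1844 below 0.6, of which 7 were higher. Within each of the 5 classes of level the share called was larger below 0.6, but on few calls. It was 1.65% (6 of 364) against 0.148% (1 of 674) in the lowest. In the highest it was 0.309% (1 of 324) against 0.0681% (1 of 1468). The difference between the classes depended on the libraries: without P0 replicate 3, 0.887% of regions at 0.6 or more and 1.25% of those below passed, and without E14.5 replicate 3 there was 1 call at or above 0.6 and 0 below. At ratios of at least 0.6, 0 regions were called higher in 14 of 16 alternative fits, and 1 was when E14.5 replicate 2 or P0 replicate 2 was left out. Only 25 of the 118 calls have such a window of their own gene.

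**Figure D2:**
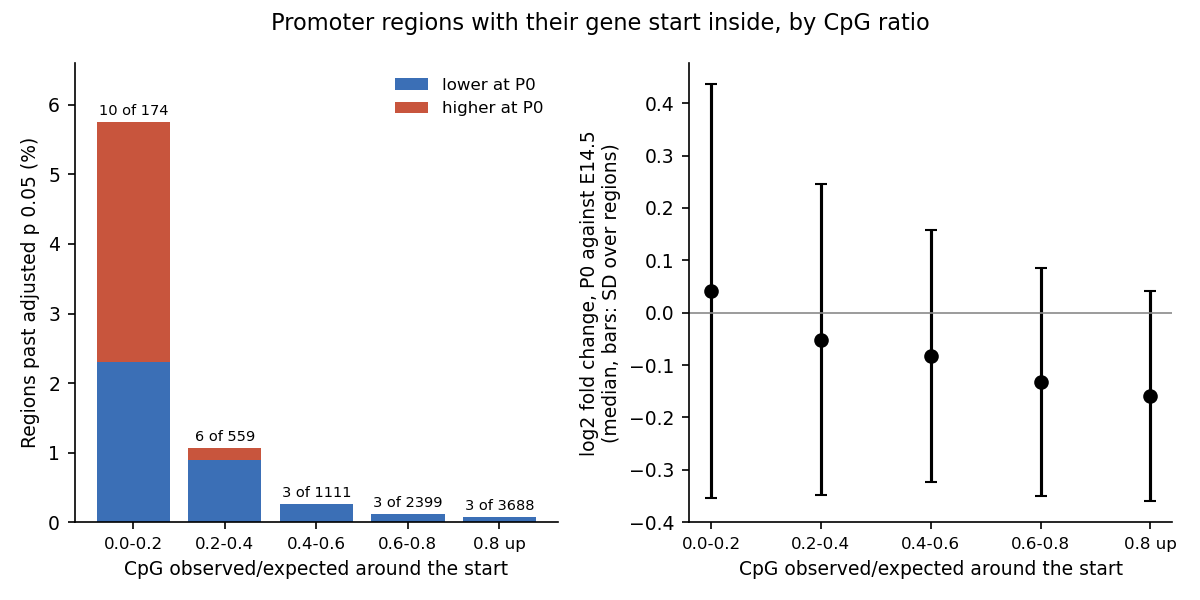
Left, percent of promoter regions past an adjusted p of 0.05, split by direction, in 5 classes of the CpG ratio around the start (horizontal axis), with called and total numbers above the bars. Right, median log2 fold change (points) with the SD over regions (bars) in the same classes. Calls higher at P0 occur in the 2 lowest classes, and the median falls from 0.04 to -0.16.

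The small common shift also followed CpG content, from a median log2 fold change of 0.04 in the lowest class to -0.16 in the highest. It was carried by some libraries only. At ratios of at least 0.6 the median log2 CPM, centred on the mean of each region, was 0.12, -0.00 and 0.13 in the E14.5 libraries and -0.08, -0.31 and 0.14 in the P0 libraries. P0 replicate 3 lay above every E14.5 library, and P0 replicate 2 lay lowest. Without P0 replicate 2, the medians of the log2 fold change were -0.05 at ratios of at least 0.6 and -0.04 below. Without P0 replicate 3 they were -0.29 and -0.15.

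Short sequence motifs were counted in the same windows on both strands, as a description of letters and not of binding. The 7 motifs searched are named with their results, and none of them contains another. The E-box CACGTG, which Myc and related factors can bind, was in 6 of the 18 windows that fell and in 0 of the 7 that rose, against 10.3% of the 7931 windows and 7.15% of all 32851 RefSeq windows. These 6 were the windows of Igf2bp3, Lin28b, Kcne4, Rab3gap2, Stag3 and Zfp820. In the printed sequences it begins 23 bases before the start of Igf2bp3, 49 before that of Lin28b and 54 before that of Kcne4. TATAAA was in 4 of the 18 windows that fell and 6.10% of the 7931 windows, and CCAAT in 10 of the 18 and 39.2%. GGGCGGG, the letters of a GC box, was in 1 of the 25 windows of called regions and in 51.7% of the 7931. ACAAAG, a match to the Tcf/Lef core, was in 3 of the 7 windows that rose (Tmem144, Tas2r126 and Siglecg) and in 951 of the 7931. TGANTCA, the AP-1 site, was in 1 of the 18 windows that fell, 1 of the 7 that rose and 4.11% of the 7931. TGTTTAC, a forkhead site, was in 2 of the 18, 0 of the 7 and 2.18% of the 7931. Over all 32851 RefSeq windows the shares were 13.6% for TATAAA, 37.4% for CCAAT, 25.6% for GGGCGGG and 18.7% for ACAAAG. They were 7.81% for TGANTCA and 3.65% for TGTTTAC.

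Igf2bp3, which encodes an RNA-binding protein of the fetus and of tumours that stabilises growth-related transcripts, had the largest loss among promoters with a CpG ratio of at least 0.6. Its region, chr6:49213710-49215959, holds the start of the gene, and its window had a ratio of 0.98. The level was 30.1, 32.8 and 41.0 CPM in the E14.5 libraries and 14.58, 8.32 and 15.6 CPM in the P0 libraries. Every P0 library lay below 16 CPM and every E14.5 library above 30 CPM. The mean fell from 34.7 ± 5.65 to 12.8 ± 3.92 CPM (SD, n = 3 each). The fitted log2 fold change was -1.41 (SE 0.24, adjusted p = 0.00449). This call held in 16 of 16 alternative fits, with a highest adjusted p of 0.0443. Other regions at the gene, chosen after their values were seen, did not pass: 1 at chr6:49217553-49218595, upstream of the gene, had 31.4 and 19.2 CPM (log2 fold change -0.70, adjusted p = 0.0962), and 1 inside the gene at chr6:49164484-49165659 had 5.28 and 10.2 CPM (log2 fold change 0.93, adjusted p = 0.0929).

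Lin28b encodes an RNA-binding protein that blocks the maturation of let-7 microRNAs. Its promoter region, chr10:45467808-45470665, held 22.5, 24.3 and 26.5 CPM in the E14.5 libraries and 13.1, 13.6 and 11.8 CPM in the P0 libraries. The groups were apart by more than their range within a stage. The log2 fold change was -0.93 (SE 0.19, adjusted p = 0.0134), and the call was lost in 4 of 16 alternatives, with a highest adjusted p of 0.0960 without E14.5 replicate 3. The window of Lin28b has a ratio of 0.71 but only 8 CpG, since its GC content is 39.0%. The other regions within 10 kb of the gene had log2 fold changes between -0.30 and 0.36 and did not pass.

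**Figure D3:**
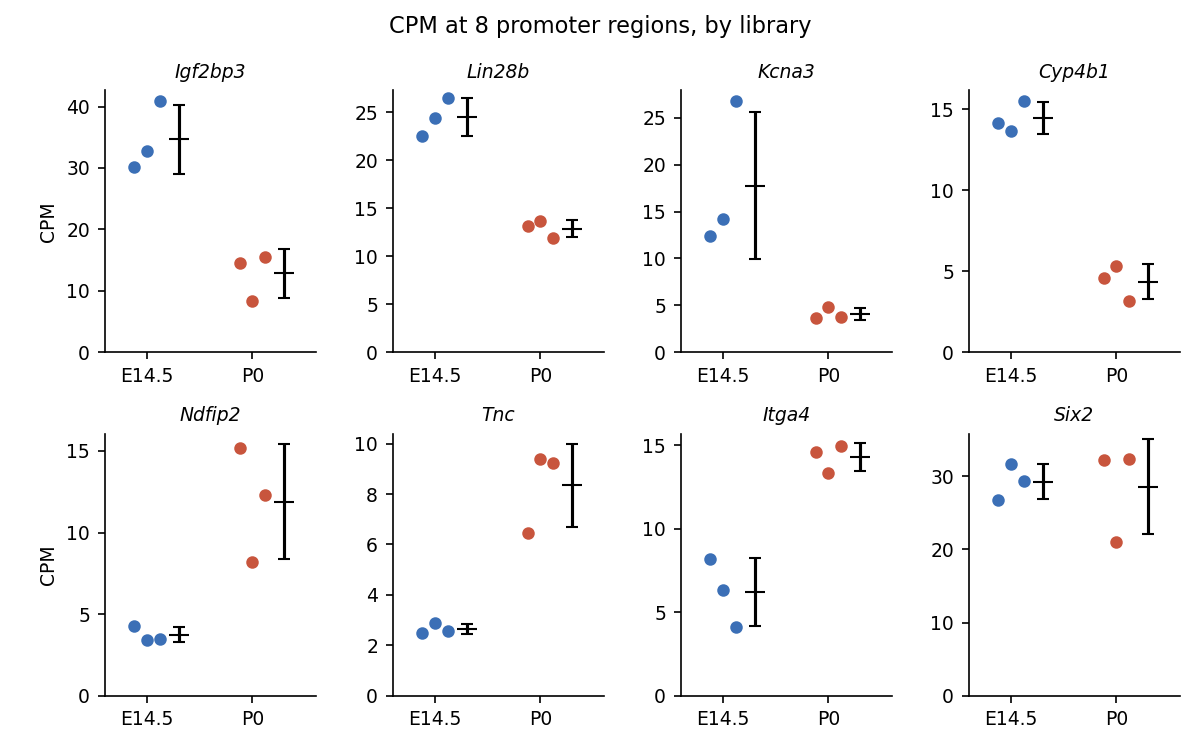
CPM (vertical axes, from 0) at 8 promoter regions in each of the 3 E14.5 and 3 P0 libraries (points), with the mean and SD of each stage beside them. The stages are separate at 7 regions, which were chosen among called regions, and overlap at Six2.

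The other 4 losses at windows with a CpG ratio of at least 0.6 had smaller fold changes than Igf2bp3. Isl2, a LIM-homeodomain factor of motor neurons, fell from 18.8 ± 3.99 to 9.80 ± 1.43 CPM (log2 fold change -0.94, adjusted p = 0.0315). Pcsk1, a protease that cuts prohormones, fell from 21.8 ± 1.24 to 11.9 ± 3.25 CPM (log2 fold change -0.88, adjusted p = 0.0373). The region of Stag3, a cohesin subunit of meiosis, also holds the start of the glypican gene Gpc2, and the counts of the pair cannot be told apart. It was among the most accessible of the called promoters and fell from 85.4 ± 4.602 to 48.8 ± 7.09 CPM (log2 fold change -0.81, adjusted p = 0.0302). Rab3gap2, a regulatory subunit of a GTPase-activating complex, fell from 28.1 ± 2.63 to 16.2 ± 3.37 CPM (log2 fold change -0.79, adjusted p = 0.0408; SD, n = 3 each). Of the 16 alternatives, 9, 8, 13 and 9 kept the calls of Isl2, Pcsk1, Stag3 and Rab3gap2. These 4 regions were chosen by their CpG ratio after the calls were known.

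The 12 largest losses among called promoters with a gene name and separate stages ran from a log2 fold change of -2.18 to -1.35. Igf2bp3 was the tenth. Kcna3, a voltage-gated potassium channel, had its region 1985 bp upstream of the start (chr3:107033192-107034177). It held 12.3, 14.19 and 26.7 CPM in the E14.5 libraries and 3.64, 4.84 and 3.79 CPM in the P0 libraries. Its E14.5 libraries were spread widely, and the lowest was above all P0 libraries, as the choice required (log2 fold change -2.13, SE 0.31, adjusted p = 0.00265). Ank2, which encodes a scaffold of membrane proteins, had its region within the gene, 22484 bp downstream of the start (chr3:126975330-126975968). It fell from 11.9, 12.8 and 17.0 CPM to 2.29, 4.09 and 4.89 CPM (log2 fold change -1.88, SE 0.31, adjusted p = 0.00413). Cyp4b1, a cytochrome P450 enzyme, had its region within the gene, 3977 bp downstream of the start (chr4:115642563-115643744). The level there fell from 14.1, 13.7 and 15.5 CPM to 4.58, 5.30 and 3.16 CPM (log2 fold change -1.75, SE 0.27, adjusted p = 0.00313). These 3 calls held in 16 of 16 alternatives.

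The remaining losses of this group came from several gene families. Il20rb, a subunit of interleukin receptors, and Col9a1, a chain of cartilage collagen, had regions 1316 and 1216 bp upstream of their starts, with log2 fold changes of -1.62 and -1.41. Vmn2r6, a vomeronasal receptor, had its region 7418 bp upstream of the start. The level there was 24.2 ± 3.69 CPM at E14.5 and 8.35 ± 1.44 CPM at P0 (SD, n = 3 each, log2 fold change -1.54, adjusted p = 0.00242). Amy1, a starch-digesting amylase, held its start inside and had a log2 fold change of -1.46, and Clca1, a secreted modulator of chloride channels that RefSeq places at Clca3a1, one of -1.35. Vmn2r6, Amy1 and Clca1 belong to families of similar copies, so the assignment of their counts is uncertain. Oit3 had a log2 fold change of -1.51, and the predicted genes Gm15782 and Gm12649 of -2.18 and -1.59. All 12 kept their direction in each alternative, which the choice of regions with separate stages made likely. Of the 12, 8 still passed when E14.5 replicate 3 was left out and 9 when P0 replicate 1 was.

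The 12 largest gains at promoters with a gene name, chosen by the same rule, were smaller and less stable than the named losses. They ran from a log2 fold change of 1.08 to 1.68 and started from low levels, between 2.65 and 10.2 CPM on average at E14.5. Without E14.5 replicate 3, 0 of 12 passed, and without P0 replicate 1, 1 of 12. The direction was kept in every fit, which the choice of regions with separate stages made likely. Regions of identifiers without a gene name reached higher, with a log2 fold change of 2.42 at ENSMUSG00000094523 (adjusted p = 0.00424) and 1.74 at ENSMUSG00000050092 (adjusted p = 0.00183). Both passed in all 16 alternatives, and they are named here with their values already known. Ndfip2, an adaptor of Nedd4-family ubiquitin ligases, had its region inside the gene, 34997 bp downstream of the start (chr14:105293620-105294832). It held 4.27, 3.42 and 3.50 CPM in the E14.5 libraries and 15.2, 8.17 and 12.3 CPM in the P0 libraries. The P0 libraries differed among themselves by more than the E14.5 libraries. They lay above all of them, as the choice required (log2 fold change 1.68, SE 0.30, adjusted p = 0.00634). Tnc, which encodes the matrix protein tenascin-C, rose from 2.49, 2.89 and 2.57 CPM to 6.46, 9.38 and 9.24 CPM at a region 25498 bp inside the gene (chr4:64021009-64021438; log2 fold change 1.65, SE 0.32, adjusted p = 0.00910). Tas2r126, a bitter taste receptor, held its start inside the region chr6:42434311-42435562 and rose from 4.15, 6.74 and 4.90 CPM to 13.0, 13.9 and 13.3 CPM (log2 fold change 1.34, SE 0.26, adjusted p = 0.0101). Its P0 libraries were nearly alike.

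The region of Itga4, an integrin subunit that binds fibronectin, lay 1244 bp upstream of the start and increased from 6.19 ± 2.05 CPM to 14.3 ± 0.843 CPM (log2 fold change 1.21, adjusted p = 0.0202; SD, n = 3 each). Nck2, an adaptor of receptor tyrosine kinases, and Irf8, a transcription factor of myeloid cells, had regions 86478 and 12999 bp downstream of their starts, with log2 fold changes of 1.43 and 1.08. Rhobtb1 had its region 56923 bp from the start (log2 fold change 1.25). Tmem144 and Tchhl1, the latter a gene of the epidermal differentiation cluster, held their starts inside, with log2 fold changes of 1.29 and 1.14. Olfr458, an olfactory receptor, and U2, a copy of the spliceosomal U2 RNA, had log2 fold changes of 1.16 and 1.13, and both belong to families of similar copies whose counts may be shared. The region of 4933413G19Rik, which RefSeq names Tex52, had a log2 fold change of 1.16.

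Promoters of the nephron lineage did not pass the test. Of 22 progenitor genes, 12 had an autosomal promoter region listed under their own name or, for Tafa5, its older name Fam19a5, 14 regions in all, and 0 of 14 were called, near the background of 0.871% of all promoter regions for a list of this size. Their median log2 fold change was 0.14, against -0.11 over all promoter regions, and 1 of 14 had an unadjusted p under 0.05. Six2 held 26.8, 31.6 and 29.3 CPM in the E14.5 libraries and 32.3, 21.0 and 32.4 CPM in the P0 libraries. The stages overlapped there (log2 fold change -0.03, SE 0.21, adjusted p = 0.962). The largest value of the list was at Spock2, a proteoglycan gene, with 28.7 ± 2.52 and 40.7 ± 5.21 CPM (SD, n = 3 each; log2 fold change 0.51, adjusted p = 0.154). Eya1 and Sall1, transcriptional regulators of the progenitor state, had log2 fold changes of -0.40 and -0.29, and Wt1, Osr1, Robo2 and Meox2 of 0.34, 0.35, 0.39 and 0.45. Gdnf, the ligand that draws the ureteric bud, had 23.0 ± 1.01 and 22.0 ± 0.996 CPM (log2 fold change -0.07). The start of Itga8, the selection antigen, lay in a region listed under E030013I19Rik (chr2:12300438-12302586), with 38.3 to 39.7 CPM at E14.5 and 33.4 to 38.9 CPM at P0. As a check of the labelled cell type, Six2, Sall1, Gdnf and Itga8 had their RefSeq start in a promoter region with counts in all 6 libraries, and Osr1 and Eya1 had a listed region whose start was not compared. The 8 genes of the list without an autosomal promoter region by name or start were Cited1, Pax2, Meox1, Hoxa11, Hoxd11, Crym, Tmem100 and Uncx.

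Genes of differentiation were open at both stages. Of 16 genes of early nephron formation, 8 had 17 regions under their own name, of which 4 at Ccnd1 overlap each other, and 0 of 17 were called, which for this and the following short lists is near the background of 0.871% of all promoter regions. The median log2 fold change was 0.02, with a range from -0.37 to 0.43. Jag1, a Notch ligand, had 76.3 ± 6.98 and 82.0 ± 22.7 CPM at its stronger region, and Pax8, a regulator of nephron epithelium, 23.9 ± 1.40 and 28.2 ± 3.99 CPM at its own (SD, n = 3 each). The start of Dll1, another Notch ligand, lay in a region listed under another identifier (log2 fold change 0.20, adjusted p = 0.645). Podocyte genes had 14 regions at 9 of 12 genes and 0 calls, with a median of 0.12. Tubule genes had 5 regions at 5 of 15 genes and 0 calls. Among them Umod, the uromodulin gene of the thick ascending limb, had 9.05 ± 2.40 and 4.24 ± 0.849 CPM (log2 fold change -1.09, adjusted p = 0.0578).

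Of 15 genes of developmental timing, 8 had 10 promoter regions, and 2 of 10 fell, Igf2bp3 and Lin28b, beside 0.48% of promoter regions called lower. The call of Lin28b was known from earlier results of these data when the list was made, so the count is not independent evidence of a direction. The paralogue Igf2bp2 had 32.2 ± 3.34 and 34.2 ± 1.61 CPM (log2 fold change 0.09), and Igf1r, the receptor of insulin-like growth factors, 49.8 ± 6.65 and 38.5 ± 10.5 CPM (log2 fold change -0.36). Mycn, a Myc-family factor, had 30.7 ± 0.704 and 39.1 ± 7.44 CPM (log2 fold change 0.35). Dis3l2, the exonuclease that degrades precursors of let-7, had 17.7 ± 2.74 and 12.7 ± 2.21 CPM (SD, n = 3 each; log2 fold change -0.47, adjusted p = 0.266). The 3 regions of Plagl1, a growth regulator that is imprinted, had log2 fold changes of 0.24, 0.14 and 0.53, and Tsc1, an inhibitor of mTOR signalling, of -0.12.

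Lists of cell division, stress and ribosomal genes had 0 calls, beside 0.871% of all promoter regions, so that 0 is near the background for lists of this size. Listed under their own name, cell cycle genes had 17 regions at 17 of 22 genes with a median log2 fold change of -0.24, immediate early genes 19 regions at 13 of 18 with -0.09, and glucocorticoid response genes 14 regions at 8 of 12 with -0.25. The starts of Mcm3, Mcm7, Pcna, Aurka, Jun, Ccn1 and Rpl24 lay in regions listed under another identifier, which are not in these counts and did not pass. The lowest of their log2 fold changes was -0.54 at Mcm7 (adjusted p = 0.142). Genes of ribosomal proteins had 40 regions at 39 genes with a median of -0.12. The median over all promoter regions was -0.11, and it moved to -0.00 with TMM scaling over promoters alone.

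Markers of other cells that the isolate could hold were also examined under their own gene names, and 0 of their regions were called, which is near the background of 0.871% for so few regions. The starts of the stromal marker Tbx18 and the ureteric marker Gata3 lay in regions listed under other identifiers, which are not counted here and did not pass (log2 fold changes -0.23 and -0.19). Immune markers had 0 promoter regions at 14 genes, the defining Ptprc, Csf1r, Spi1 and Tyrobp included. Stromal markers had 9 regions at 9 of 16 genes, with summed levels of 188 to 228 CPM at E14.5 and 197 to 262 CPM at P0. Endothelial markers had 5 regions at 5 of 14 genes with sums of 126 to 143 and 116 to 126 CPM, and ureteric markers 9 regions at 9 of 15 genes with 154 to 177 and 151 to 157 CPM. Neural markers had 9 regions at 5 of 10 genes, with sums of 379 to 420 CPM at E14.5 and 311 to 368 CPM at P0. These sums did not overlap, beside 16.9% of single promoter regions whose stages did not overlap. Erythroid markers had 1 region at 9 genes, at Nfe2. An open promoter does not show that a gene is used, and the part of such cells in the losses and gains was not tested. Cd53, a tetraspanin of white blood cells, fell from 23.4 ± 5.73 to 11.5 ± 1.94 CPM and Siglecg, a receptor of B cells, rose from 13.2 ± 1.02 to 24.7 ± 6.47 CPM, both with SD and n = 3 per stage (log2 fold changes -1.03 and 0.90, adjusted p = 0.0205 and 0.0298). Both were chosen after their values were seen.

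**Figure D4:**
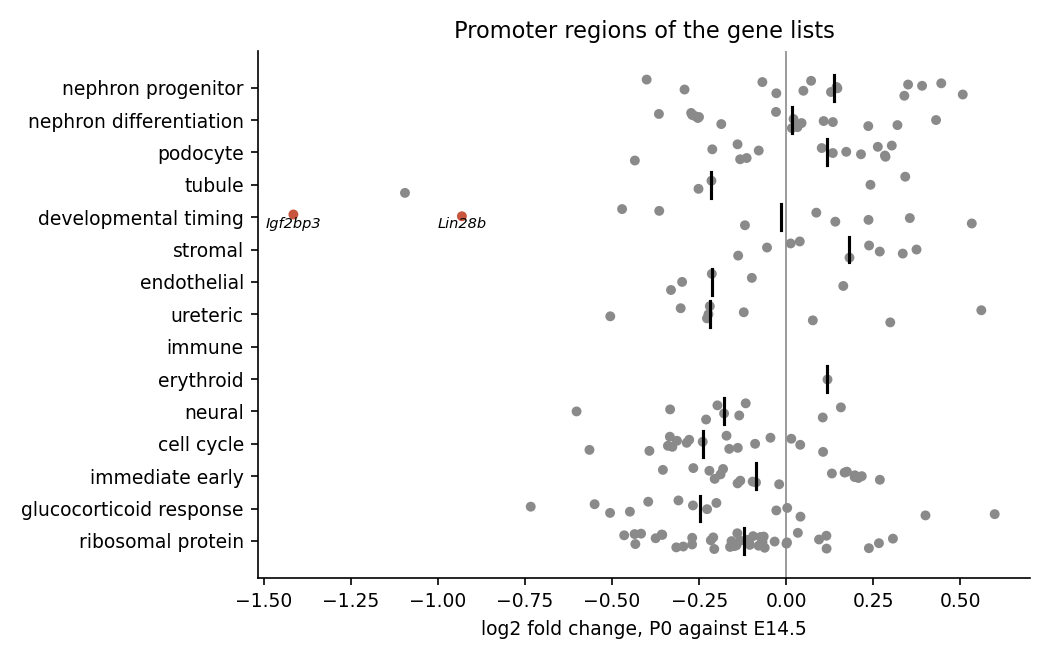
Log2 fold change between P0 and E14.5 (horizontal axis) of each promoter region in 15 gene lists (rows), with the list median as a black line and regions past an adjusted p of 0.05 in red. Only Igf2bp3 and Lin28b pass, and the immune list has no region.

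Genes with several promoter regions allowed a comparison within each library, in which scaling cancels. Among 969 such genes, 97 pairs overlapped and were left out, and 872 pairs of the 2 regions with the most counts were tested with limma for a difference in stage effect. Of these, 1 (0.115%) passed at an adjusted p under 0.05, 23 had an adjusted p under 0.1, and 117 (13.4%) an unadjusted p under 0.05. The stronger region of the pair was called in the edgeR fit in 3 genes, the weaker in 22 and both in 0. The pair that passed was Ndfip2. Its main region at the start (chr14:105258046-105259502) had 52.7 ± 3.28 and 45.4 ± 13.8 CPM, while the inner region had 3.73 ± 0.470 and 11.9 ± 3.53 CPM (SD, n = 3 each). The log2 ratio of main to inner region was 3.68, 3.82 and 3.86 in the E14.5 libraries and 1.86, 1.85 and 2.05 in the P0 libraries. The stages did not overlap, and the ratio fell by 1.87 (SE 0.20, adjusted p = 0.00145), with adjusted p-values from 0.00134 to 0.0240 over 9 alternatives. Without P0 replicate 3 the number of pairs that passed rose to 25, and with E14.5 replicate 2 left out it was 2.

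In the same test, 5 other genes whose weaker region was among the largest gains or losses did not pass. They were chosen for a change in that region in the same libraries. The start regions of Tnc, Itga4, Nck2 and Irf8 had log2 fold changes of 0.42, 0.00, 0.04 and 0.01, while their weaker regions had 1.65, 1.21, 1.43 and 1.08. For Col9a1 the start region had 0.34 and the upstream region -1.41. The adjusted p-values of the differences were 0.0520 for Tnc, Itga4 and Col9a1, 0.0526 for Nck2 and 0.0604 for Irf8. Over 9 alternatives they ranged from 0.0491 to 0.242 for Tnc, 0.00260 to 0.242 for Col9a1, 0.0491 to 0.288 for Itga4, 0.00260 to 0.277 for Nck2 and 0.0333 to 0.304 for Irf8. Col9a1 passed in 4 of the 9 and each of the others in 1.

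**Figure D5:**
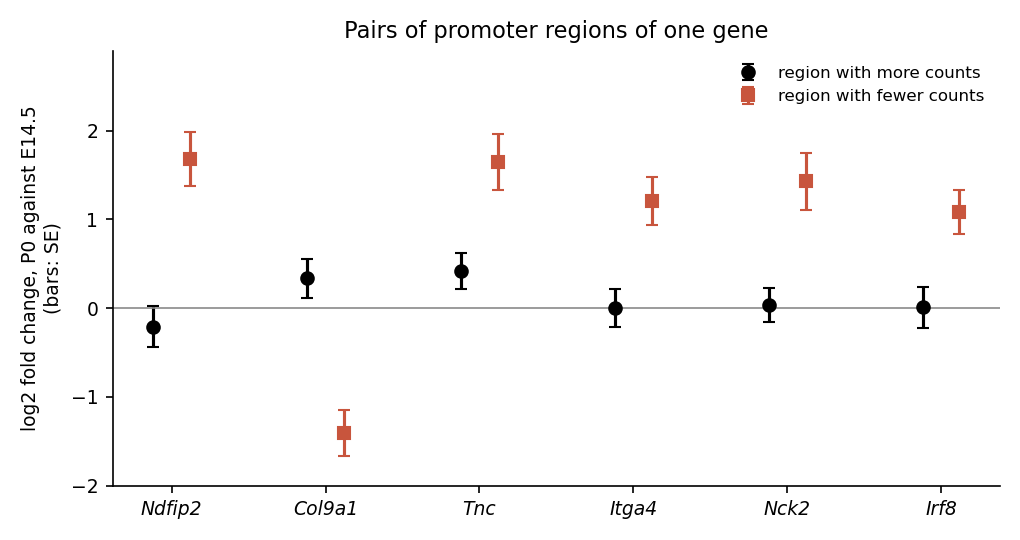
Log2 fold change between P0 and E14.5 (vertical axis, bars: SE) of the promoter region with more counts (circles) and of that with fewer counts (squares) for 6 genes. The regions with more counts lie between -0.21 and 0.42, and the others reach 1.68 in Ndfip2 and -1.41 in Col9a1.

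The nearest accessible region outside promoters was compared between promoters that changed and the rest, without a test. Of the 53 promoter regions that rose, 47 had a region outside promoters within 50 kb, and the nearest was called higher in 3 (6.38%) and lower in 3 (6.38%). Of the 65 that fell, 45 had such a neighbour, called lower in 5 (11.1%) and higher in 1 (2.22%). Next to promoters that did not pass, 2.46% of the nearest regions were called higher and 1.38% lower. The median log2 fold change of the neighbour was 0.26 next to promoters that rose, -0.28 next to those that fell and 0.09 next to the rest. These values share libraries with the calls and are given as a description.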

How the data were processed

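Accessibility was measured by ATAC-seq in 3 E14.5 and 3 P0 libraries, grouped and numbered by their source names. The deposited table gives whole-number counts per region in each library, per the file headers; 0 such columns remained without a library. The authors' own log2 fold change and mean level, p-value with adjusted p-value, and score (t statistic) stand in the same deposited table and were not used. The genome build is mm10, per the submitters' processing notes; the aligner, peak caller, counting rule, duplicate removal and Tn5 shift are not given in the sources used here, and their effect on counts was not assessed.

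Of 45489 rows, 1966 repeated a region and were dropped. Promoter regions have an entry in the promoter column, outside chromosomes X and Y; 146 overlap an earlier one and were kept. On X and Y, 542 were left out. The column holds 1 gene identifier per region, named through 28296 identifier-name pairs of the same table, without conflict; 12044 regions gained a name, and 11591 names were found in RefSeq (GRCm38.p6), 11582 on the right chromosome. RefSeq windows served for starts, CpG and motifs; at 7931 of 13555 regions a window of the listed gene lay inside, so a CpG description over all promoter regions is void.

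All 43523 regions were fitted with edgeR 4.0.16 (R 4.3.3; TMM, filterByExpr removing 0 regions, quasi-likelihood F test, stage as term), with Benjamini-Hochberg adjustment over all regions and a threshold of 0.05. CPM use TMM-scaled totals; log2 CPM a prior count of 1. Pairs of promoters of one gene were tested with limma 3.58.1 on within-library differences of log2 CPM. DESeq2 1.42.0 and limma-voom were alternatives. Where a fit leaves out a library, its stage keeps the others. The fits were tested on simulated counts. Of 200 promoter regions changed 2-fold there, the edgeR fit called 115 (57.5%), beside 11 false calls over 43523 regions. A 2-fold change can therefore go uncalled. Python 3.11.15, pandas 2.3.3, numpy 2.4.6, scipy 1.17.1 and matplotlib 3.10.9 were used. Libraries are separate litters, and their number limits the precision.

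Named regions are the 12 largest changes in each direction among called promoters with a gene name and separate stages, called promoters of the 15 gene lists, the leading promoter pairs past the threshold and the 3 regions with the highest CPM per kb; list members without a call illustrate their list; 1 such member is not reported here. The members, lists and rules were chosen with earlier results of these data known.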

Additional observations from a re-analysis of the deposited data

How the results depend on the processing

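The 118 called promoter regions (53 higher, 65 lower, 55.1% lower) stayed within 1.5 times under DESeq2 size factors, no filter, a mean count of at least 30, limma-voom and autosomes alone. Total-count scaling gave 39 lower (39.8% of calls lower, so the majority turned); TMM over promoter regions alone gave 40 calls, 23 higher and 17 lower (42.5%); a fit of promoter regions alone gave 37, 21 and 16 (43.2%). That TMM choice raised the median log2 fold change of promoter regions from -0.11 to -0.00. The DESeq2 Wald test gave 218 calls, 80 higher and 138 lower. A threshold of 0.1 gave 265 (109 higher, 156 lower), and 0.01 gave 21 (7 and 14; 66.7% lower). Leaving out 1 library gave 12 to 193 calls, 3 to 107 higher and 9 to 125 lower, with 44.0% lower without E14.5 replicate 2, where the majority turned, and up to 81.2% lower otherwise. Fewer samples entered these fits; beyond that the cause was not tested. The promoter share of counts stayed between -5.28 and -2.08 percentage points. Promoter pairs that passed numbered 4 with a prior count of 5 and 1 to 25 without 1 library. Calls in the gene lists (2) were 1 with TMM over promoter regions alone, 1 with promoter regions alone (Igf2bp3 alone in each), 4 with the DESeq2 Wald test (Umod among them) and 1 to 4 without 1 library. Of the 25 named called regions, 8 lost the call with TMM over promoter regions alone. The call was lost at 17 when E14.5 replicate 3 was left out and at 15 when P0 replicate 1 was. Of the 25, 0 changed direction in any alternative, which their separate stages made likely. Added after seeing the data, the calls with the start of the listed gene inside (25) ranged from 1 to 77, and those with a CpG ratio of at least 0.6 (6) from 1 to 54.

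With the replicate number as a replicate block, 95 promoter regions passed, 40 higher and 55 lower, 3 promoter pairs passed, and Hif3a joined the gene lists (3 calls). Libraries of the same number had correlated deviations of 0.012, 0.067 and 0.14 from their stage means, so the numbers were not taken to pair them. E14.5 replicate 1 deviated most like P0 replicate 2 (0.032), while E14.5 replicates 2 and 3 deviated most like the P0 replicate of their own number.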

Other observations

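Several called promoter regions lay near each other, as noticed after the calls were known and without a test. On chromosome 6, Tas2r126 (42434311 to 42435562) and Olfr458 (42460249 to 42462159), a taste and an olfactory receptor gene, both rose (log2 fold changes 1.34 and 1.16). On chromosome 3, Tchhl1 rose with the regions of 2 identifiers without a name in the table, ENSMUSG00000050092 (92316718 to 92318152), which overlaps Sprr2b in RefSeq, and ENSMUSG00000042157 (92408018 to 92409640), which overlaps Sprr2i, with log2 fold changes of 1.14, 1.74 and 0.93. Tchhl1 and the Sprr genes belong to the epidermal differentiation cluster, and the Sprr2 genes are similar copies whose counts may be shared. Also on chromosome 3, the predicted genes Gm15577 and Gm15578 both fell (log2 fold changes -1.28 and -0.91).

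In 2 genes, 2 regions were called and moved the same way. Phactr3, a regulator of protein phosphatase 1, fell at both (log2 fold changes -1.07 and -0.78), from 15.0 ± 2.54 to 7.26 ± 2.33 CPM and from 41.6 ± 3.84 to 24.3 ± 4.72 CPM (SD, n = 3 each). Sgms1, a sphingomyelin synthase, rose at both (0.92 and 0.96), from 8.16 ± 0.696 to 15.5 ± 0.153 CPM and from 10.1 ± 3.13 to 19.7 ± 1.23 CPM. These regions lay 26162 bp downstream and 26416 bp upstream of the start, while the stronger region at the start of Sgms1 had 57.2 ± 4.79 and 54.0 ± 12.7 CPM (log2 fold change -0.08, adjusted p = 0.886). On the sex chromosomes, 531 promoter regions of X held 1 gain and 1 loss, and 11 of Y held none.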
